A study of Mus musculus with 8 samples.

Results

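The 84 protein-coding genes of the cytosolic ribosomal proteins were followed in resting mast cells with and without editing of Mettl3. They were chosen by symbol among the 56748 gene IDs of the count tables: every protein-coding mouse gene named Rpl or Rps with a number, with or without a letter suffix, together with Rplp0, Rplp1, Rplp2 and Rpsa, and without the S6 kinases (Rps6k), whose symbols only look alike. The rule used names and no measured value. The genes fell into 31 small subunit members including Rpsa, 43 large subunit members, the 3 stalk genes Rplp0, Rplp1 and Rplp2, and 7 paralogs, which are second genes for a protein related to that of another member. Passing the filter on low counts (about 10 counts in 4 libraries) were 81 of the 84, and the 3 that did not were the paralogs Rpl10l, Rpl39l and Rpl3l.

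The cells were BMMCs, the mast cells that bone marrow of mice yields in culture, and the series text names 4 mice as their source. In the Mettl3-RNP group (genotype label Mettl3 KO, 4 libraries) cells were transfected with Cas9 ribonucleoproteins against Mettl3, the catalytic subunit of the complex that methylates adenosine in mRNA at the N6 position (m6A). In the Pulsed group (genotype label Mettl3 WT, 4 libraries) cells of the same kind were mock transfected. The control received no Cas9, so an effect of cutting DNA and an effect of losing Mettl3 cannot be told apart, and each edited library is a population of cells and not a clone. As the study states, the edited populations still held untargeted cells, so a fold change covers edited and unedited cells together. Per the study's methods the marrow came from C57BL/6 mice of both sexes, 6 to 8 weeks old. No genotype or treatment besides these is given in the labels, and no methylation was measured in these libraries. Libraries with the same replicate number were compared as pairs 1 to 4.

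A ribosome is built from a small and a large subunit, each a core of ribosomal RNA clothed with one copy of nearly every ribosomal protein, while the acidic stalk proteins P1 and P2 sit on P0 and recruit the elongation factors. Ribosomal protein mRNAs are TOP mRNAs: they begin with a tract of pyrimidines through which the mTORC1 pathway and the protein Larp1 set how well they are translated and how long they are kept. Growing cells spend much of their transcription on them, and many of the genes carry snoRNAs, the guides of rRNA modification, in their introns.

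The start of the genes is shown first, because a pyrimidine tract there is a feature of TOP mRNAs that the selection by name did not use. The run counted here could lie anywhere in a window around the start, so it need not be the tract at the first transcribed base. RefSeq windows around the annotated start (build GRCm38.p6) were matched by symbol for 63 of the 84 members. A run of at least 8 consecutive C or T on the transcribed strand lay within 50 bases of the start in 52 of the 63 members (82.5%), against 36.6% of 9413 other tested protein-coding genes and 39.3% of all 27025 RefSeq genes with a window. The median of the longest run was 10 bases in members and 7 in the other genes. Where a gene had several annotated starts the one with the longest run was taken, and a run was read only as far as the window reached. The 30 bases that hold the run are given here 5′ to 3′ for the 4 members of lowest log2 fold change (Rps18, Rps2, Rpl14, Rpl12) and for Rpl37a, Rpl41 and Rpl39 among the 5 of highest, with the run in capitals.
Rps18: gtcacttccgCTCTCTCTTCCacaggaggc
Rps2: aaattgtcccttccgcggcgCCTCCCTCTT
Rpl14: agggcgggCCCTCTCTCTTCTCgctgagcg
Rpl12: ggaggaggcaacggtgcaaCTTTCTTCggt
Rpl37a: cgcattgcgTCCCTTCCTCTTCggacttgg
Rpl41: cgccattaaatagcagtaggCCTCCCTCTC
Rpl39: gttcttccggtcccggCCTTTCTCTTCTCC
They lie at chr17:33955648-33955677 (minus strand), chr17:24720083-24720112 (plus), chr9:120571501-120571530 (plus), chr2:32961732-32961761 (plus), chr1:72711274-72711303 (plus), chr10:128549119-128549148 (minus) and chrX:37085173-37085202 (minus) in the order given. Relative to the annotated start the runs began at base -2 in Rps18 and -8 in Rpl14. They began at base 40 in Rps2 and Rpl41, 39 in Rpl12, 36 in Rpl39 and 23 in Rpl37a. The printed genes, from both ends of the order of fold changes, thus carried such a run. Rpl3, Rps29 and Rps4l, also among the 5 lowest or 5 highest, are not shown. The median log2 fold change was -0.09 in the 50 tested members that had a run of this length and -0.11 in the 10 that had a window without one.

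Total counts ranged from 32643260 to 45324826 per library. Mettl3 mRNA, which checks the labels, was measured at 12.3, 9.18, 4.88 and 9.21 CPM (counts per 1000000 counts of the library after TMM scaling of its size) in Mettl3-RNP libraries 1 to 4 and at 25.9, 24.5, 11.2 and 26.5 CPM in Pulsed libraries 1 to 4. It was lower in 4 of 4 pairs, with a log2 fold change of -1.30 (SE 0.109, edgeR quasi-likelihood adjusted p = 0.00543). When the signs of its 4 differences were flipped in an exact permutation test, the two-sided p was 0.125, the smallest that 4 pairs allow. The mast cell identity of the cultures was read from 12 markers: Kit, the receptor of stem cell factor, stood at 4242 ± 567 CPM (SD, n = 4) in Mettl3-RNP and 4055 ± 903 CPM in Pulsed. Mcpt4 was low at 3.23 CPM in Mettl3-RNP and 2.91 CPM in Pulsed. Tpsab1, at 0.0895 and 0.0464 CPM, did not pass the filter, and the other 11 of the 12 did. Of these Cpa3, a granule protease, fell (log2 fold change -0.37, adjusted p = 0.0328, past the threshold in 8 of 14 other settings and in 1 of the 4 that left out a replicate), and the other 10 did not pass the threshold. Among them Fcer1g, a chain of the IgE receptor, was lower in 4 of 4 pairs (-0.17, adjusted p = 0.204) and Mitf, a mast cell transcription factor, higher in 4 of 4 (0.30, adjusted p = 0.0709). Marker lists were summed as CPM of the total counts without TMM scaling. The neutrophil markers summed to at most 0.331 CPM in any library, with 4 of 6 at 0 in every library. The macrophage markers summed to 7.68 to 37.4 CPM in Mettl3-RNP and 9.78 to 15.5 CPM in Pulsed, with Cd68 at 16.7 ± 11.3 and 4.50 ± 1.62 CPM (log2 fold change 1.63, adjusted p = 0.142, higher in 3 of 4 pairs) and Adgre1, which fell, at 1.18 ± 0.370 and 2.53 ± 0.444 CPM (log2 fold change -1.13, adjusted p = 0.0435, past the threshold in 7 of 14 other settings and in 0 of the 4 that left out a replicate). The basophil markers summed to 537 to 852 and 524 to 619 CPM, nearly all of it Cd200r3 (log2 fold change 0.25, adjusted p = 0.151, higher in 4 of 4 pairs). The other basophil markers Mcpt8 (-0.42), Prss34 (-0.68) and Itga2 (-0.85) went the other way in each pair and did not pass (adjusted p between 0.267 and 0.333). The erythroid markers summed to 1.19 to 2.78 and 2.83 to 4.41 CPM, and the lymphocyte markers to 0.0850 to 1.21 and 0.0853 to 0.794 CPM. Mcpt4, Tpsab1, Fcer1g, Mitf, Cd68 and the basophil markers were named after their values were seen. What part these other cell types have in the results was not tested.

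No cytosolic ribosomal protein gene passed the threshold between Mettl3-RNP and Pulsed. With the limit set at an adjusted p of 0.05, 0 of 81 were called, where 3.74% of the 14942 tested genes were (2.35% higher and 1.39% lower in Mettl3-RNP). The smallest adjusted p of a member was 0.0580 (Rps4l) and the next 0.0963 (Rps2). At an unadjusted p under 0.05 there were 7 members lower (8.64%; 10.7% of all genes) and 1 higher (1.23%; 11.8% of all genes), in all 8 where 22.5% of all genes stood. Lower in 4 of 4 pairs were 12 members (14.8%, against 16.0% of all genes), and higher in 4 of 4 was Rps4l alone (1.23%, against 15.7%). The values of the groups overlapped for every tested member, while 3.23% of all genes had groups that did not overlap. In other settings between 0 and 11 members were called, and the members concerned are named in the closing section.

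The bounds on the changes were narrow. The 95% interval of the log2 fold change lay within a 1.5-fold change in either direction for 80 of 81 members, as it did for 56.6% of all tested genes, and Rps4l was the exception. The median standard error was 0.0845 over the members and 0.120 over all tested genes. Fitted values ran from -0.25 (Rps18) to 0.24 (Rpl39) over the 80 members other than Rps4l. Most lay on the same side: 67 of the 81 were below 0 (82.7%) and 14 above, where 50.2% of all genes were below 0, and the median was -0.09 against 0.00 over all tested genes. In a bulk library fewer cells of a type and less RNA per cell cannot be told apart.

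**Figure D1:**
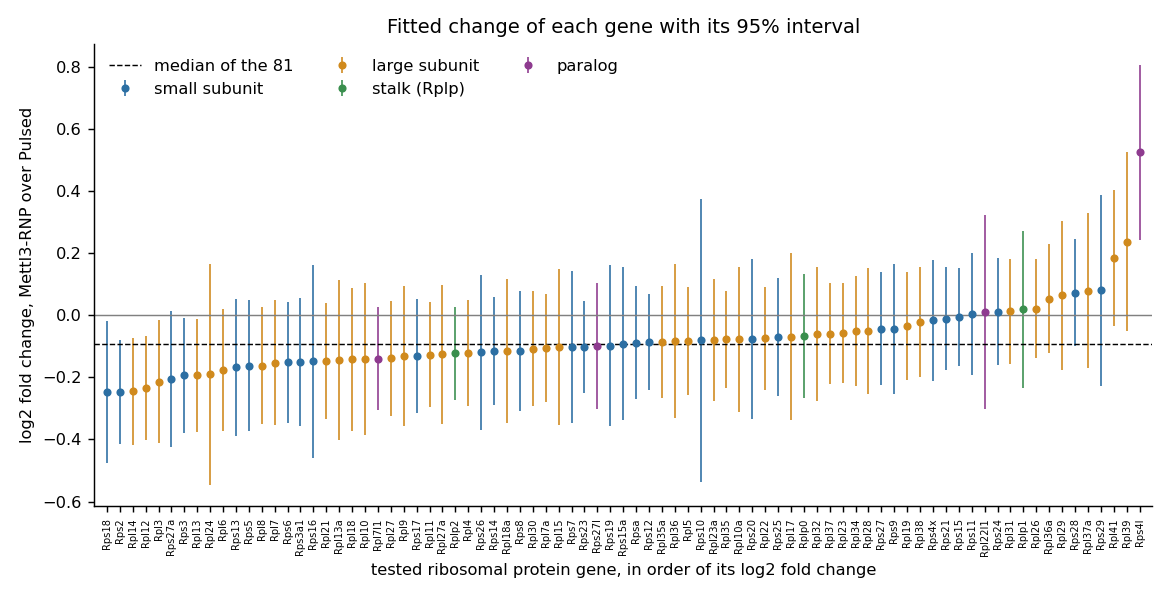
Fitted log2 fold change (Mettl3-RNP over Pulsed, y axis) of the 81 tested ribosomal protein genes in order of their value (x axis), coloured by class, where bars are 95% intervals and the dashed line is the median of -0.09. The values of all genes but Rps4l lie between -0.25 and 0.24, and the interval of Rps4l alone reaches beyond a 1.5-fold change.

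The shift below 0 was carried largely by one pair. The median difference in log2 CPM of the members was 0.03 in pair 1, -0.11 in pair 2, 0.01 in pair 3 and -0.29 in pair 4, where the medians over all tested genes were -0.02, 0.00, -0.03 and 0.02. Members with a lower value in the edited library numbered 35 of 81 in pair 1, 59 in pair 2, 39 in pair 3 and 77 in pair 4. The lowest of its 4 differences fell in pair 4 for 64 members (79.0%), as it did for 25.4% of all tested genes. Without replicate 4 the median of the members was -0.01 and 45 of 81 were below 0, and without replicate 1 the median was -0.16. Sums over marker lists of other cell types differed between the pairs as well. The macrophage markers summed to 7.68, 33.2, 18.0 and 37.4 CPM (of total counts) in Mettl3-RNP libraries 1 to 4 and to 15.5, 10.2, 13.5 and 9.78 CPM in Pulsed libraries 1 to 4. The basophil markers summed to 537, 852, 616 and 792 CPM against 524, 619, 550 and 579 CPM. Both sums stood highest over their control in pairs 2 and 4, the pairs in which the members were low. The basophil sum was nearly all Cd200r3, while Mcpt8, Prss34 and Itga2 were higher in the edited library of 0 of 4 pairs. In the macrophage list Cd68 was higher in 3 of 4 pairs and Adgre1 in 0 of 4. The sums thus do not stand for every marker of a cell type, and their part in the shift was not tested.

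**Figure D2:**
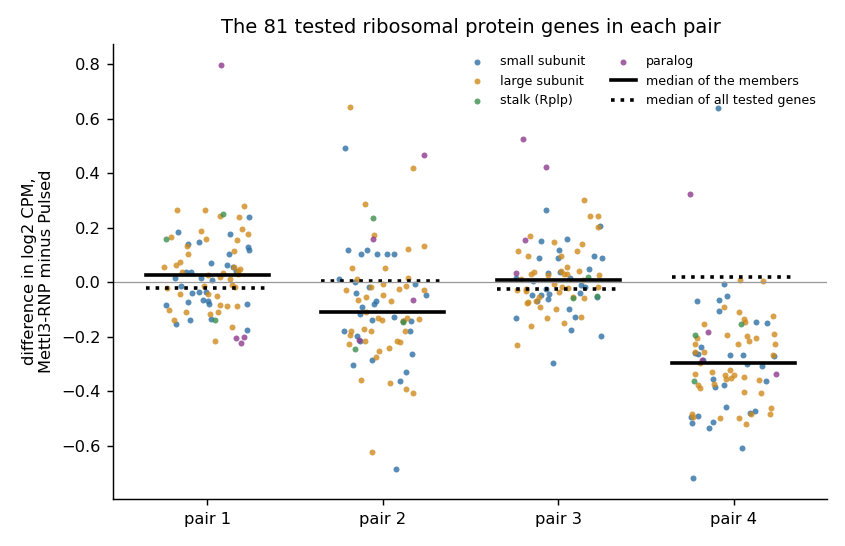
Difference in log2 CPM, Mettl3-RNP minus Pulsed (y axis), of each of the 81 tested members in each pair of libraries (x axis), coloured by class, with the median of the members (solid bar) and of all tested genes (dotted bar). The cloud is centred near 0 in pairs 1 and 3, lower at -0.11 in pair 2, and at -0.29 in pair 4, where 77 of 81 genes lie below 0.

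The share of all counts that fell on the 84 genes was also lowest against its control in pair 4. It was 3.14, 4.13, 3.92 and 3.27% in Mettl3-RNP libraries 1 to 4 and 3.05, 4.25, 3.80 and 3.96% in Pulsed libraries 1 to 4. The group means were 3.61% ± 0.481 (SD, n = 4) and 3.76% ± 0.511, and the groups overlapped. The log2 ratio within pairs was 0.04, -0.04, 0.04 and -0.27, with a mean of -0.06 ± 0.15 (SD, n = 4), and without replicate 4 the mean was 0.01. In pair 4 both subunits were lower. Its small subunit share went from 1.59% in Pulsed to 1.30% in Mettl3-RNP and its large subunit share, stalk included, from 2.34% to 1.95%. The ratio of small to large subunit counts lay between 0.668 and 0.688 in all 8 libraries.

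**Figure D3:**
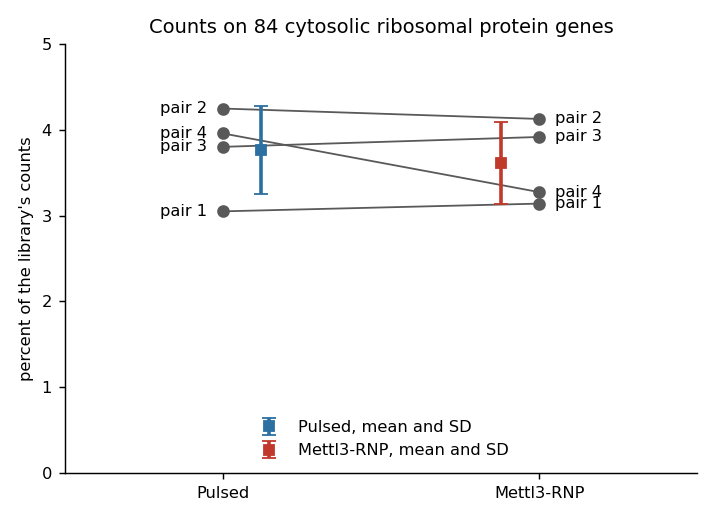
Percent of the counts of a library that fell on the 84 cytosolic ribosomal protein genes (y axis) in Pulsed and Mettl3-RNP libraries (x axis), with lines joining the libraries of a pair and squares with bars for the mean and SD of 4 libraries. Pairs 1 to 3 are nearly level, and pair 4 goes from 3.96% to 3.27%.

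Among small subunit members 0 of 31 were called, 27 lay below 0, and their median log2 fold change was -0.10. Rps2, a protein at the entry of the mRNA channel, had 468, 689, 722 and 598 CPM in Mettl3-RNP and 529, 865, 789 and 765 CPM in Pulsed. It was the lower one in 4 of 4 pairs, although the groups overlapped, and its log2 fold change was -0.25 (SE 0.0721, 95% interval -0.41 to -0.08, adjusted p = 0.0963). Rps18, which sits on the head of the subunit, had 318, 445, 482 and 304 CPM against 334, 516, 516 and 462 CPM. Its difference was largest in pair 4 (-0.61 in log2 CPM) and its log2 fold change was -0.25 (SE 0.0991, adjusted p = 0.193). At the other end, Rps29, a small zinc-binding protein, had 118, 239, 192 and 116 CPM against 125, 170, 160 and 150 CPM. It was higher in pairs 2 and 3 and lower in pairs 1 and 4, and its log2 fold change of 0.08 (SE 0.133) had an adjusted p of 0.778. Rpsa, the ribosomal protein also known as the laminin receptor, had 628, 961, 1124 and 825 CPM against 644, 1057, 1057 and 994 CPM (log2 fold change -0.09, SE 0.0789, adjusted p = 0.569).

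Among large subunit members 0 of 43 were called, 36 lay below 0, and their median was -0.09. Rpl14 had 341, 498, 504 and 420 CPM in Mettl3-RNP and 375, 639, 551 and 537 CPM in Pulsed, with a log2 fold change of -0.25 (SE 0.0747, adjusted p = 0.107). Rpl12, a protein at the base of the stalk, had 367, 498, 583 and 451 CPM against 396, 653, 684 and 519 CPM, with a log2 fold change of -0.23 (SE 0.0728, adjusted p = 0.112). Rpl3, which reaches towards the peptidyl transferase centre, had 404, 551, 571 and 439 CPM against 453, 642, 574 and 605 CPM, with a log2 fold change of -0.21 (SE 0.0860, adjusted p = 0.194). These 3 were lower in 4 of 4 pairs with overlapping groups, and in pair 3 Rpl3 differed by only -0.01 in log2 CPM.

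The 2 canonical members of highest log2 fold change, Rpl39 and Rpl41, were also of the large subunit. Rpl39, which lines the exit tunnel for the new protein, had 53.8, 122, 85.9 and 52.8 CPM in Mettl3-RNP and 47.2, 78.4, 69.7 and 60.6 CPM in Pulsed (log2 fold change 0.24, SE 0.125, adjusted p = 0.312). Rpl41, the shortest of the proteins, had 446, 725, 744 and 468 CPM against 389, 542, 628 and 510 CPM (0.18, SE 0.0941, adjusted p = 0.296). Rpl37a had 189, 273, 258 and 157 CPM against 170, 224, 224 and 198 CPM (0.08, SE 0.108, adjusted p = 0.723). All 3 were higher in the edited library of pairs 1, 2 and 3 and lower in that of pair 4.

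Of the stalk, 0 of 3 genes were called. Rplp0, the member with the most counts at 1573 ± 255 CPM in Pulsed, had a log2 fold change of -0.07 (SE 0.0864, adjusted p = 0.711), Rplp1 0.02 (SE 0.110, adjusted p = 0.941) and Rplp2 -0.12 (SE 0.0643, adjusted p = 0.307). Rplp2 was lower in 4 of 4 pairs, with 322, 423, 488 and 335 CPM against 355, 467, 508 and 373 CPM. Rplp1 was higher in pairs 1 and 2 and lower in pairs 3 and 4.

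**Figure D4:**
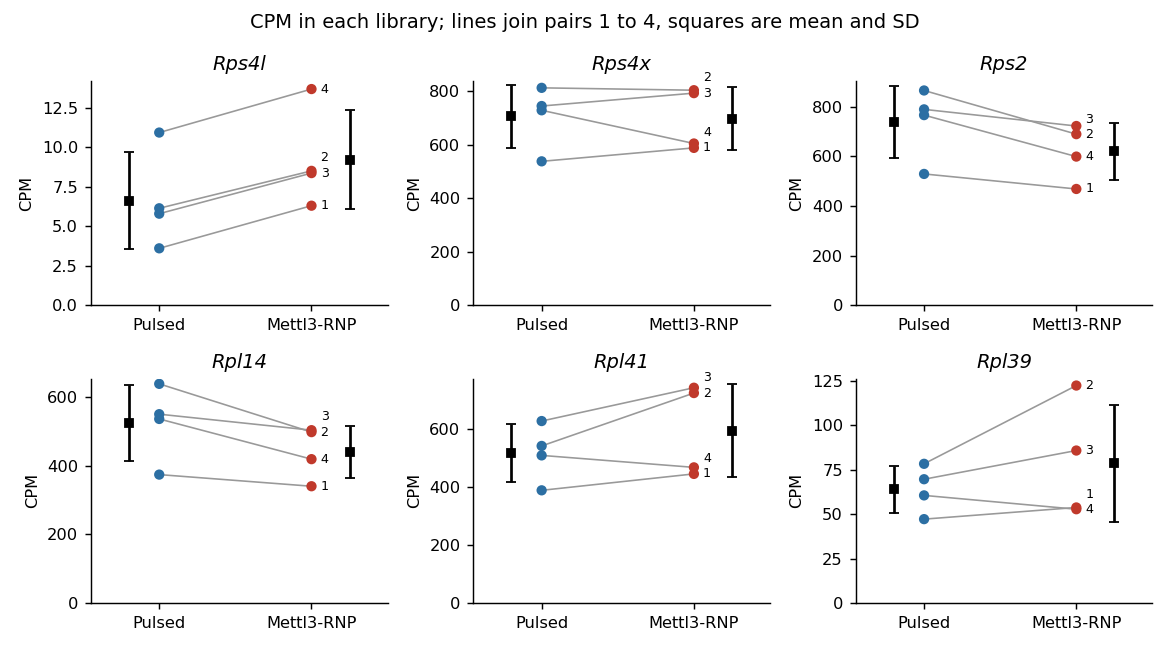
CPM (y axis, from 0, on its own scale in each panel) of 6 members in the 4 Pulsed and 4 Mettl3-RNP libraries (x axis), with lines joining pairs 1 to 4 and black squares with bars for the mean and SD. Rps4l is higher in the edited library of all 4 pairs and Rps2 and Rpl14 are lower, while Rpl41 and Rpl39 go up in pairs 1 to 3 and down in pair 4.

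The paralogs were minor next to the genes they resemble. Rps4l is an autosomal gene for a protein like that of Rps4x, its coding sequence lies in 1 unbroken stretch, and its coding bases match those of Rps4x at 629 of 786 aligned positions (80.0% identity). None of its 737 stretches of 50 bases, the length of a read, occurs in the coding sequence of Rps4x (0 of 737). However, 17.6% of these stretches recur exactly at 1 other place in the genome, and what this does to its counts was not tested. The first 60 coding bases are shown, with bases that differ in capitals, because Rps4l had the highest fold change of all members.
Rps4x: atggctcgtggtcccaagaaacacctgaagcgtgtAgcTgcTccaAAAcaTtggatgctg
Rps4l: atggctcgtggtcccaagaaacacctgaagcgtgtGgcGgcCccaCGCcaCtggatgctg
In build GRCm39 the coding sequence of Rps4x lies in chrX:101228639-101232906 (minus strand) and that of Rps4l in chr6:148256208-148256993 (plus strand). Rps4l had 6.30, 8.50, 8.36 and 13.7 CPM in Mettl3-RNP libraries and 3.60, 6.14, 5.79 and 10.9 CPM in Pulsed libraries. It was higher in the edited library of every pair, by 0.80, 0.47, 0.53 and 0.32 in log2 CPM, while library 4 of either group stood above the other 3. The fitted log2 fold change was 0.52 (SE 0.122, 95% interval 0.24 to 0.81) with an adjusted p of 0.0580, just over the threshold. In 4 other settings Rps4l was put past the threshold, with adjusted p from 0.00136 to 0.0471, and over all 14 other settings its log2 fold change lay between 0.40 and 0.61 and its adjusted p between 0.00136 and 0.999. Rps4x, at 707 ± 118 CPM in Pulsed, had a log2 fold change of -0.02 (SE 0.0842, adjusted p = 0.934). Rps4l made up 1.34% ± 0.581 (SD, n = 4) of the counts of the pair in Mettl3-RNP and 0.915% ± 0.377 in Pulsed.

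In the other paralog pairs no gene passed the threshold. Rpl22l1 held 8.47% ± 1.79 of the counts of Rpl22 and Rpl22l1 in Mettl3-RNP and 7.93% ± 0.508 in Pulsed, and its log2 fold change was 0.01 (SE 0.135) beside -0.07 (SE 0.0716) for Rpl22. Rps27l, a gene also known as a p53 target, held 17.5% ± 3.98 and 18.0% ± 3.25 of its pair and had -0.10 (SE 0.0874) beside -0.04 (SE 0.0787) for Rps27. Rpl7l1 held 14.5% ± 1.23 and 14.4% ± 1.40 and had -0.14 (SE 0.0718) beside -0.15 (SE 0.0869) for Rpl7. The adjusted p of these 6 genes ranged from 0.297 to 0.976. Rpl10l had 0 counts in every library, which allows up to 0.100 CPM in Mettl3-RNP library 3, where this limit is highest (3 counts, counting error only), while Rpl10 stood at 596 ± 68.8 CPM in Pulsed (log2 fold change -0.14, SE 0.106, adjusted p = 0.489). Rpl3l had 0 to 5 counts and Rpl39l 0 to 8 counts in a library, too few to compare.

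Levels between genes were compared in Pulsed as CPM per kb of coding length, since the annotated exons of several members include retained introns and long 3′ ends. Rpl41 was highest at 6899 ± 1322 CPM per kb, followed by Rplp1 (3454 ± 459), Rps24 (2636 ± 574), Rpl23 (2586 ± 425) and Rps26 (2222 ± 508), of which the last 3 did not differ beyond their spread. Per kb of exon length only 2 of these 5 stayed among the highest, so the order rests on the length used. Fitted log2 fold changes of Rps24, Rpl23 and Rps26 were 0.01, -0.06 and -0.12, with adjusted p of 0.948, 0.692 and 0.572. Lowest of the tested members, by either length, were Rps4l (8.41 ± 3.93), Rpl24 (21.1 ± 7.03), Rps10 (29.8 ± 10.1), Rpl22l1 (51.9 ± 9.31) and Rpl13a (91.5 ± 19.5).

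Of those low members 3 overlap a neighbouring gene on the same strand. Rpl24 (9.94 ± 3.31 CPM in Pulsed), Rps10 (14.7 ± 4.99 CPM) and Rpl13a (55.7 ± 11.9 CPM) each overlap, on the same strand, an annotated gene that itself had 0 or nearly 0 counts: Gm28037 with 0.00622 CPM, Gm49804 with 0 and Gm45713 with 0. The same holds for Rpl41 (517 CPM) with Gm9176 at 0 and for Rpl19 (603 CPM) with Gm11629 at 0.0729 CPM, neither of which is low, and whether such overlaps bear on the counts was not tested. The log2 fold changes of Rpl24, Rps10 and Rpl13a were -0.19 (SE 0.153), -0.08 (SE 0.197) and -0.14 (SE 0.112), with adjusted p of 0.523, 0.854 and 0.505. Of all members 74 exceeded 100 CPM in Pulsed, the median of the 81 tested was 442 CPM against 15.6 CPM over all tested genes, and 52 stood among the 500 highest genes. The members also have many sequence copies: in the median member 89.9% of the 50-base stretches of the coding sequence recur exactly elsewhere in GRCm39, and 30 of the 84 have no stretch of their own. What such copies do to the counts was not tested. The 322 named ribosomal protein pseudogenes in the tables held 0.00503 to 0.00696% of the total counts of a library. Exons of 39 members overlap a gene on the opposite strand.

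Shorter members tended to sit higher and longer ones lower. Over the 77 tested members that are not paralogs, coding lengths ran from 75 to 1257 bases, and the correlation of log2 coding length with the log2 fold change was -0.57 (Spearman) and -0.66 (Pearson). This is a description across genes that share the same 8 libraries. Among the 25 shortest (75 to 396 bases) the median log2 fold change was -0.05 and 9 lay above 0. Among the 27 of middle length (405 to 576 bases) the median was -0.12 with 3 above 0, and among the 25 longest (582 to 1257 bases) it was -0.14 with 0 above 0. In pair 2 the medians of these 3 groups were 0.00, -0.08 and -0.21, and in pair 4 they were -0.23, -0.32 and -0.36, so pair 4 was low at every length and pair 2 mainly in the longer genes.

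The correlation with length was uneven between pairs. Spearman's rho was -0.16 in pair 1, -0.64 in pair 2, -0.25 in pair 3 and -0.25 in pair 4, and it was -0.35 without replicate 2. With offsets for the GC content and exon length of all genes in the fit it was -0.53. Over 12023 tested protein-coding genes rho was 0.09, and 614 other genes as short as the shortest members had a median of -0.05 on that scale, where 3892 as long as the longest had -0.01. What sets the relation was not tested.

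**Figure D5:**
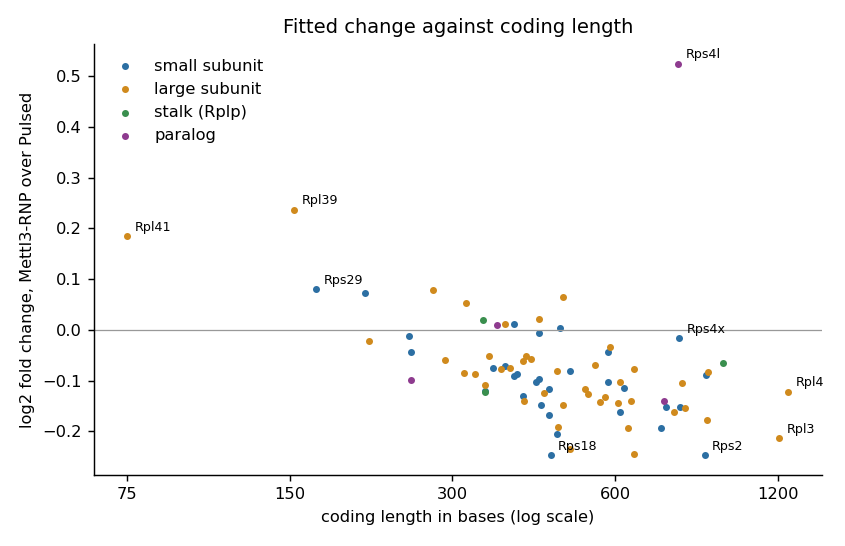
Fitted log2 fold change (Mettl3-RNP over Pulsed, y axis) of the 81 tested members against coding length in bases (x axis, log scale), coloured by class. The shortest genes, Rpl41 and Rpl39, lie highest of the canonical members, all of the 25 longest canonical members lie below 0, and the paralog Rps4l stands apart at 0.52.

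The genes that make, assemble and use ribosomes were read from the same fit. Elongation factors and other TOP mRNA products had 0 of 16 called and a median of -0.14. Their lowest was Pabpc1, the poly(A) binding protein (1615 ± 199 CPM in Mettl3-RNP, 2120 ± 191 CPM in Pulsed, log2 fold change -0.40, adjusted p = 0.0874), and their highest Eef2, the translocation factor (0.12, adjusted p = 0.382). By pair the median of these 16 was 0.03, -0.26, 0.04 and -0.26, low in pairs 2 and 4 like the ribosomal proteins. TOP mRNA regulators and mTORC1 had 0 of 14 called, from Rheb (-0.20, adjusted p = 0.127) to the translation repressor Eif4ebp1 (0.48, adjusted p = 0.0938), with a median of -0.05.

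Of 80 tested genes of rRNA synthesis, ribosome assembly and ribosomal protein chaperones, 3 fell and 0 rose. The share called lower was 3.75%, where 1.39% of all tested genes were called lower. In either direction 3.74% of all tested genes were called (2.35% higher). The genes of RNA polymerase I, which transcribes the large rRNAs, had 0 of 13 called and a median of -0.10, from Taf1a (-0.27, adjusted p = 0.214) to Polr1d (0.28, adjusted p = 0.0657). Of the 11 genes of nucleolar rRNA modification Nop58, a core protein of box C/D snoRNPs, fell (106.7 ± 74.9 CPM against 137 ± 90.7 CPM, log2 fold change -0.39, SE 0.0651, adjusted p = 0.0269, lower in 4 of 4 pairs). Of 24 small subunit assembly genes Nat10, which acetylates 18S rRNA, fell by 0.31 on the log2 scale (SE 0.0681, adjusted p = 0.0496). Of 7 chaperones of ribosomal proteins Heatr3, which serves Rpl5, fell by 0.38 on the log2 scale (SE 0.0724, adjusted p = 0.0340). The 25 large subunit assembly genes had 0 called and a median of -0.16, with 22 below 0, from Bop1 (-0.30, adjusted p = 0.0580) to Rrs1 (0.37, adjusted p = 0.0657). By pair the median of these 25 was -0.16, -0.16, -0.11 and -0.12. Over 14 other settings, in which their sign did not change, Nop58 passed the threshold in 9, Heatr3 in 7 and Nat10 in 6. None of the 3 passed with no replicate block (adjusted p = 0.999 each), and of the 4 settings that left out a replicate Nop58 passed in 1 and Heatr3 and Nat10 in 0. Medians of the 11 modification genes and of the 24 and 7 genes were -0.14, -0.14 and 0.00.

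In the last lists one gene rose, where 2.35% of all tested genes did. Of 9 tested genes of ribosome rescue and quality control Pelo, which releases stalled ribosomes, rose from 6.14 ± 1.46 CPM to 9.88 ± 2.11 CPM (log2 fold change 0.69, SE 0.129, adjusted p = 0.0328, higher in 4 of 4 pairs), and the median of the 9 was -0.04. Pelo passed in 9 of 14 other settings, but not with no replicate block (adjusted p = 0.999) nor with any replicate left out. The noncoding hosts of snoRNAs had 0 of 8 called and a median of -0.01, from Snhg6 (-0.27, adjusted p = 0.360) to Zfas1 (0.16, adjusted p = 0.434). Myc, p53, Mdm2 and related genes, which set ribosome production or sense its failure, had 0 of 7 called and a median of -0.08, from Trp53 (-0.21, adjusted p = 0.210) to Mdm2 (0.17, adjusted p = 0.193).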

How the data were processed

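The 8 libraries were made from poly-A RNA of resting BMMCs, 4 Mettl3-RNP and 4 Pulsed. The authors aligned paired reads with HISAT2 2.2.1 to GRCm39 and deposited unnormalized counts per Ensembl gene from featureCounts 2.0.1, after quality control with FastQC 0.11.9. Strand and multimapping settings are not given in the sources used here, so genes overlapping on opposite strands cannot be told apart. The study's methods name a batch correction that is not visible in the counts. Names and positions came from GENCODE M39, which named 56017 of 56748 IDs (98.7%), and start windows from RefSeq.

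Genes kept by filterByExpr (14942) were scaled by TMM and tested with the quasi-likelihood test of edgeR 4.0.16 in R 4.3.3, blocking on the replicate number, and p-values were adjusted over all of them by Benjamini-Hochberg. Standard errors were derived from the test statistic. CPM used TMM library sizes, except that shares of counts and sums over marker lists used the total counts unscaled, and log2 CPM a prior count of 2. The replicate number was taken to mark a mouse, and deviations from the group means correlated between same-numbered libraries (r = 0.825, 0.489, 0.879 and 0.765, against at most 0.183 between other numbers). That these are 4 separate cultures follows from the series text. Replicates differed by more than sampling noise (lowest chi-square per degree of freedom 52.6), so none were merged. Intervals cover the spread between pairs, and the limit set by 3 counts covers counting error only. For levels between genes, coding length replaced the planned exon length, and the coding sequence annotated most often among the CCDS transcripts of a gene was used.

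The members, gene lists and tests were chosen with earlier results of these data known. Genes were named by a rule: Mettl3, members past the threshold, the 5 highest and 5 lowest by fold change (mean of at least 1 CPM) and by level, both genes of each paralog pair, the stalk genes and Rpsa, and in the other lists the genes past the threshold or otherwise those of largest and smallest fold change. Overlaps with other genes were looked up for members only. Alternatives were no block, other size factors, filters, tools and offsets, and leaving out each replicate. DESeq2 1.42.0 and limma 3.58.1 served as other tools. One further short gene list is not reported here.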

Additional observations from a re-analysis of the deposited data

Results flagged for a closer look

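In all, 3 values stood apart from the other 3 libraries of their group by Dixon's criterion, out of 60 groups of 4 libraries tested, and chance flags about 1 group in 20, so 3 would be flagged by chance. Mettl3 was lowest in Pulsed library 3 at 11.2 CPM, where the other Pulsed libraries had 24.5 to 26.5 CPM. Its partner of pair 3 was the lowest of the edited libraries, at 4.88 CPM. Rpl24, which overlaps another gene on the same strand, was highest among the edited libraries in Mettl3-RNP library 3 at 12.6 CPM, beside 7.11 to 7.43 CPM in the others. Rpsa was lowest among Pulsed libraries in library 1 at 644 CPM, beside 994 to 1057 CPM in the others.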

How the results depend on the processing

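Mettl3 kept its direction everywhere and its side of the threshold in every setting but the fit with no replicate block (log2 fold change -1.31, adjusted p = 0.744). With no replicate block the count of called genes went from 559 to 0 (579 at an unadjusted p under 0.05), so no gene described as risen or fallen passed there. That count was 993 with at least 1 count in all, 959 with at least 10 counts in every library, 1449 with the DESeq2 Wald test, 4564 with removeBatchEffect followed by limma-trend, which does not charge the removed block against the degrees of freedom, and 308 with a fold change of at least 1.5. It was 26 to 383 when a replicate was left out, 26 without replicate 2. The count of called members, 0 in edgeR with 8 at an unadjusted p under 0.05, was 1 with at least 1 count in all, 1 with at least 10 counts in every library (Rps4l both times), 2 with DESeq2 (Rps4l higher, Rps2 lower) and 11 with removeBatchEffect (Rps4l higher and Rpl12, Rps3, Rplp2, Rpl13, Rpl14, Rps23, Rpl3, Rps2, Rpl7l1 and Rps18 lower), and 0 in the other settings. The median of the members stayed below 0 in all settings, from -0.16 to -0.01 when a replicate was left out. Total counts with no further scaling moved the median of all genes to 0.03 and that of the members to -0.06. The share ratio lay between -0.09 and 0.01 when a replicate was left out.

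Over all settings the fitted values of 28 named members kept their sign in 377 cases, and none of the 15 that changed sign passed the threshold. These were Rps24 with no replicate block (-0.0048), Rps4x with total counts (0.017), and with offsets for GC content and exon length Rps27 (0.014), Rps4x (0.057) and Rps27l (0.011). The rest came when a replicate was left out, with ranges of -0.082 to 0.048 for Rps24, -0.094 to 0.16 for Rplp1, -0.065 to 0.24 for Rps29, -0.31 to 0.12 for Rps10, -0.13 to 0.13 for Rpl22l1, -0.25 to 0.011 for Rps26, -0.099 to 0.039 for Rps27 and -0.10 to 0.079 for Rps4x. Except where stated, the cause was not tested. Counts were too few for the 3 paralogs that were not tested, and among the tested members the standard error was widest for Rps10 (0.197).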

Other observations

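Mitochondrial ribosomal proteins, which build the separate ribosome inside mitochondria and are not members, gave a different count in the same fit. Of 77 tested genes 7 rose and 0 fell at an adjusted p of 0.05 or less, beside 2.35% and 1.39% of all tested genes, and the median log2 fold change was 0.00. With no replicate block 0 of all genes were called (579 at an unadjusted p under 0.05 in edgeR), these 7 included. The genes named here were picked after their values were seen. Mrpl43 rose from 50.6 ± 4.37 CPM to 101 ± 15.5 CPM (log2 fold change 0.99, adjusted p = 0.00543) and Mrps34 from 16.0 ± 1.42 CPM to 26.2 ± 5.60 CPM (0.69, adjusted p = 0.0342). The other 5 were Mrpl16, Mrps2, Mrpl46, Mrps23 and Mrpl57. The share of total counts on all 78 genes of the list was higher in the edited library of 4 of 4 pairs, with log2 ratios of 0.05, 0.11, 0.32 and 0.10, whereas the median difference in log2 CPM of the 77 tested genes was -0.04, -0.03, 0.18 and -0.05 in pairs 1 to 4. The difference between both kinds of ribosomal protein was not tested.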
